A study of Homo sapiens with 8 samples.

Results

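The 10 genes described here encode structural proteins of the desmosome: the desmosomal cadherins DSC2, DSC3, DSG2 and DSG3, the armadillo-repeat proteins JUP, PKP1, PKP2 and PKP3, the plakin DSP and the tetraspan membrane protein PERP. They were found by matching the Ensembl identifiers of the deposited tables to these symbols through GENCODE 29, and they are 10 of 58302 genes. Of these 10 genes 7 had enough counts to be tested, among 16256 tested genes. DSC3, DSG3 and PKP1 did not. RNA was sequenced in 8 libraries of derivatives of PATU-8902, a line of human pancreatic adenocarcinoma cells that the labels also spell PA-TU-8902 and A-TU-8902. The series asks how tumour cells become resistant to inhibition of TEAD, the family of transcription factors that YAP (encoded by YAP1) and TAZ (encoded by WWTR1), coactivators of the Hippo pathway, bind.

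The resistant group (3 libraries) was 1 line, grown out in culture from a shYAP/WWTR1 tumour carried by a nude mouse and kept under doxycycline, and its genotype label reads resistant to the TEAD inhibitor GNE-7883. The shYAP+TAZ group (3 libraries) was the parental line with hairpins against YAP1 and WWTR1, labelled sensitive to the same compound. The shNTC group (2 libraries) was the parental line with a control hairpin, also labelled sensitive. The labels do not say whether doxycycline was given to the shYAP+TAZ and shNTC cells, and no label says that any library was treated with GNE-7883. The description of each library reads xenograft, while RNA was extracted from cells lysed on the plate. No label says that libraries sharing a group were separate cultures, so p-values measure the spread between these libraries, which may be technical. Resistance cannot be told apart from growth in the mouse, outgrowth of 1 tumour or doxycycline, nor can the hairpins be told apart from other differences between the lines.

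A desmosome joins neighbouring epithelial cells and anchors their keratin filaments. Desmogleins and desmocollins of adjoining cells bind each other outside the cell, plakoglobin (JUP) and the plakophilins bind their tails inside it, and desmoplakin (DSP) links that plaque to keratin. Simple epithelia such as pancreatic duct use mainly DSG2, DSC2 and PKP2, whereas DSG3, DSC3 and PKP1 are best known from stratified epithelium such as skin.

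Depth was 17521154 to 22629727 counts per library. The hairpin targets checked the labels: YAP1 averaged 102 ± 2.82 CPM (counts scaled to library totals with TMM factors) in resistant cells, 156 ± 0.85 CPM in shYAP+TAZ cells and 382 ± 9.26 CPM in shNTC cells (SD, n = 3, 3 and 2). WWTR1 averaged 71.1 ± 4.69 CPM in resistant cells, 50.2 ± 0.882 CPM in shYAP+TAZ cells and 126 ± 0.774 CPM in shNTC cells. All 7 duct-type carcinoma markers were expressed, with a summed level of 6257 to 6761 CPM in resistant, 5203 to 5416 CPM in shYAP+TAZ and 4212 to 4525 CPM in shNTC libraries. MUC1 of that list went against the sum in resistant cells, averaging 182 CPM in resistant, 549 CPM in shYAP+TAZ and 399 CPM in shNTC cells, and was lower in resistant than in shYAP+TAZ (-1.60 ± 0.07, adjusted p = 2.2e-14) and shNTC cells (-1.13 ± 0.07, adjusted p = 1.7e-11). Summed over 6 genes, fibroblast markers were at 12.5 to 13.2 CPM in resistant, 6.13 to 7.18 CPM in shYAP+TAZ and 1.90 to 3.08 CPM in shNTC libraries, mostly COL1A1, with COL1A2, COL3A1 and LUM at 0 to 3 counts. PDGFRB averaged 1.01 CPM in resistant, 0.523 CPM in shYAP+TAZ and 0.388 CPM in shNTC cells. Resistant cells were higher in PDGFRB than shYAP+TAZ (0.92 ± 0.37, adjusted p = 0.0371) and shNTC cells (1.47 ± 0.47, adjusted p = 0.00997). The 4 endothelial markers summed to 4.36 to 5.85 CPM in resistant, 9.22 to 11.4 CPM in shYAP+TAZ and 1.35 to 1.82 CPM in shNTC libraries, with KDR at 0 counts. VWF was most of that sum in the resistant and shYAP+TAZ libraries, and in shNTC library 2 it was at 0.464 CPM, below PECAM1 at 0.742 CPM. The 4 leukocyte markers summed to 8.64 to 9.70 CPM in resistant, 2.54 to 3.4 CPM in shYAP+TAZ and 1.81 to 2.05 CPM in shNTC libraries, mostly LAPTM5, with PTPRC at 0 to 2 counts. The part of these marker differences in the results was not tested. Muscle markers, chosen because that tissue also carries desmosomes or desmin filaments, reached at most 0.619 CPM, and cornifying keratinocyte markers at most 17.4 CPM, nearly all of it KRT10. These bulk libraries cannot tell fewer cells of a type from less RNA per cell.

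Levels per gene length, in RPKM as the authors deposited them, spanned a wide range among the 7 tested genes, and JUP was the most abundant in all 3 groups. JUP averaged 278 ± 20.3 RPKM in resistant cells, 289 ± 14.2 RPKM in shYAP+TAZ cells and 161 ± 15.3 RPKM in shNTC cells. PKP3 came next in each group, at a mean of 82.1 RPKM in resistant, 64.1 RPKM in shYAP+TAZ and 66.7 RPKM in shNTC cells. DSC2 was the lowest of the 7, at 1.78 RPKM in resistant, 2.52 RPKM in shYAP+TAZ and 1.92 RPKM in shNTC cells. The order between them differed by group. In resistant cells DSG2 (44.5 RPKM), PERP (35.7 RPKM), PKP2 (20.3 RPKM) and DSP (11.3 RPKM) followed PKP3, and no neighbours in that order overlapped. In shYAP+TAZ cells the order was DSG2 (32.2 RPKM), PKP2 (31.8 RPKM), PERP (25.9 RPKM) and DSP (23.9 RPKM), and the libraries of DSG2 and PKP2 overlapped, as did those of PERP and DSP. In shNTC cells it was DSG2 (34.1 RPKM), PERP (33.1 RPKM), PKP2 (24.4 RPKM) and DSP (10.6 RPKM), with overlap between DSG2 and PERP. Summed over the 10 genes, the level was 474 ± 28.5 RPKM in resistant, 469 ± 14.8 RPKM in shYAP+TAZ and 332 ± 22.6 RPKM in shNTC cells, and JUP alone made up 58.7% of it in resistant, 61.5% in shYAP+TAZ and 48.5% in shNTC cells.

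**Figure D1:**
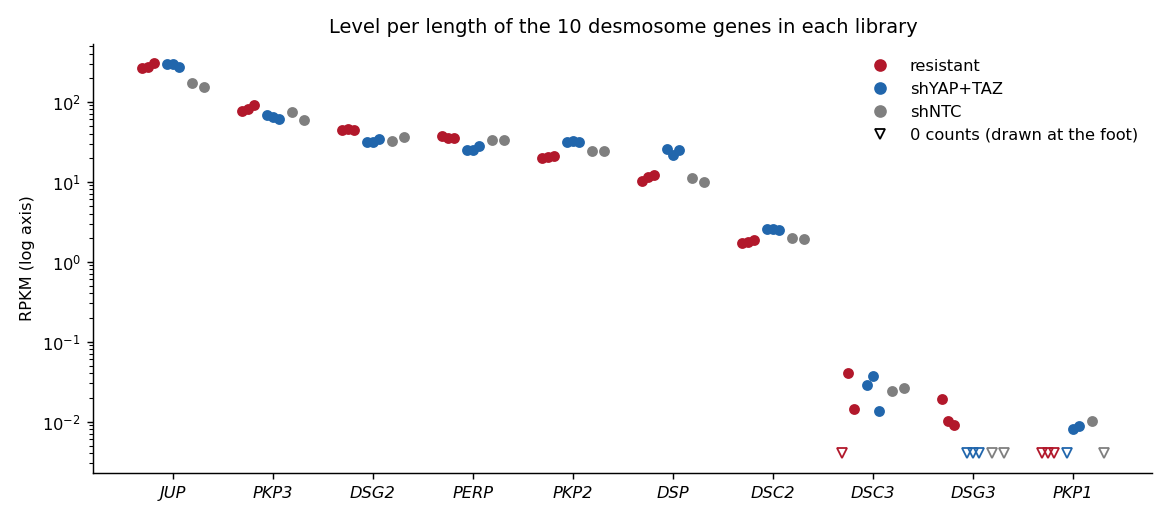
Deposited RPKM of the desmosome genes on a log axis, 1 point per library, by group (resistant, shYAP+TAZ, shNTC), with open triangles at the foot for libraries with 0 counts. JUP lies highest in each group and DSC2 lowest of the 7 tested genes, with means of 1.78 RPKM in resistant, 2.52 RPKM in shYAP+TAZ and 1.92 RPKM in shNTC cells.

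The 3 genes best known from stratified epithelium were at or near 0. DSC3 had 0, 5 and 2 counts in the resistant libraries, 4, 6 and 2 counts in the shYAP+TAZ libraries and 3 and 4 counts in the shNTC libraries. DSG3 had 2, 1 and 1 counts in the resistant libraries and 0 counts in every shYAP+TAZ and shNTC library. PKP1 had 0 counts in every resistant library, 0, 1 and 1 counts in the shYAP+TAZ libraries and 1 and 0 counts in the shNTC libraries. As a floor, 3 counts over the summed library totals of a group, without TMM factors, were taken. That floor is 0.0529 CPM in resistant, 0.0477 CPM in shYAP+TAZ and 0.0759 CPM in shNTC cells, for counting error only. The 95% counting interval of 0 counts over a group reaches somewhat higher, to 3.69 counts. Without the low-count filter none of the 3 genes was called in any comparison, and the lowest adjusted p was 0.168, for DSG3 in resistant against shYAP+TAZ cells. The remaining cadherins of the chromosome 18 cluster, DSC1, DSG1 and DSG4, each had 0 to 5 counts over the libraries of a group.

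Promoter sequence is shown for the genes whose RNA is described most closely below and whose RefSeq window, from 250 bases before the start site to 50 bases after it, held a searched motif. RefSeq (GRCh38.p14) gave 10 windows for 8 of the 10 genes. PKP2 and PKP3 were not matched. The searched letters, on both strands, were GGAATG for TEAD, TGANTCA for AP-1, AACCGGTT for grainyhead-like factors and the E-box CAGGTG that ZEB and SNAI repressors bind, and no matches overlapped in the windows printed. GGAATG was in 0 of the 10 windows, against 14.0% of all 35116 windows, and AACCGGTT was in 0 of the 10, against 0.134%. TGANTCA was in 1 window, that of PERP, against 7.71%. CAGGTG was in 4 windows, of DSP, DSC2, DSG2 and JUP, against 20.6%. The JUP window lies almost wholly in an annotated exon and is not printed. A match is a description of the letters and no evidence of binding. Nor is a window without a match evidence that a factor does not bind the gene, since sequence outside these windows was not searched. Each sequence below is written 5′ to 3′ on the strand of its gene and stops 30 bases into the first annotated exon, with matches in capitals (CACCTG is CAGGTG on the other strand). The last match of DSP and the last match of DSG2 lie within that exon.
DSP, chr6:7541421-7541604, GRCh38.p14, plus strand, E-box letters in capitals: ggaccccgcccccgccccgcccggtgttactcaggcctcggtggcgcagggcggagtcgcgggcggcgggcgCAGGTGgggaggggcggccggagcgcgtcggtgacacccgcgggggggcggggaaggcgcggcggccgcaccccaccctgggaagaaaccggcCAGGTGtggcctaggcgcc
DSC2, chr18:31102493-31102671, GRCh38.p14, minus strand, E-box letters in capitals: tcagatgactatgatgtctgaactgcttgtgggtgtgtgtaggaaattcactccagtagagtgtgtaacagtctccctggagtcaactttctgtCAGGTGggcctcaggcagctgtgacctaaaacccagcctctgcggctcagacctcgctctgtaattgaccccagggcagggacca
DSG2, chr18:31497927-31498072, GRCh38.p14, plus strand, E-box letters in capitals: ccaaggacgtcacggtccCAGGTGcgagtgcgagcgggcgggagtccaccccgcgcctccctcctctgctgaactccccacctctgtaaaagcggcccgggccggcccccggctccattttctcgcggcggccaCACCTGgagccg
PERP, chr6:138107482-138107669, GRCh38.p14, minus strand, AP-1 letters in capitals: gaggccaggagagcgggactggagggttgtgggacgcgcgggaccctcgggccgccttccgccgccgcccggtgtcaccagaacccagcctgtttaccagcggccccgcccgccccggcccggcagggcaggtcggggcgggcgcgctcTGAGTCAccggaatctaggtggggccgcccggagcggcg

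Resistant against shYAP+TAZ cells sets the cells that grew out of a shYAP/WWTR1 tumour beside the sensitive line with hairpins against YAP1 and WWTR1. DSG2, PKP3 and PERP were higher in resistant cells, DSP, DSC2 and PKP2 were lower, and JUP did not pass the test. That is 3 of 7 higher and 3 of 7 lower, where 31.0% of all tested genes were higher and 31.4% lower, 62.4% in all. Libraries of the groups did not overlap for 6 of the 7 genes, against 67.3% of all tested genes, and 1 of 7, DSP, changed by at least 2-fold, against 14.6%. The median log2 fold change of the 7 was -0.09, and over all tested genes it was 0.003. Most tested genes were called, so direction and size are given gene by gene. Calls here are those with a p under 0.05 in edgeR's quasi-likelihood test after Benjamini-Hochberg adjustment over all tested genes.

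shYAP+TAZ against shNTC cells compares the line with hairpins against YAP1 and WWTR1 to that with a control hairpin, both labelled sensitive. DSP, JUP, DSC2 and PKP2 were higher in shYAP+TAZ cells, PERP was lower, and DSG2 and PKP3 did not pass. That is 4 of 7 higher, against 30.3% of all tested genes, and 1 of 7 lower, against 30.4%, or 5 of 7 called against 60.7%. Groups did not overlap for 5 of the 7, against 71.6%, and 1 of 7, DSP, changed by at least 2-fold, against 16.4%. The median log2 fold change was 0.38, and over all tested genes it was 0.001.

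Resistant against shNTC cells sets the grown-out line beside the control hairpin. DSG2, JUP and PKP3 were higher in resistant cells, PKP2 was lower, and DSP, DSC2 and PERP did not pass. That is 3 of 7 higher, against 30.1% of all tested genes, and 1 of 7 lower, against 32.6%, or 4 of 7 called against 62.7%. Groups did not overlap for 5 of the 7, against 72.4%, and none of the 7 changed by at least 2-fold, against 18.4%. The median log2 fold change was 0.07, and over all tested genes it was -0.011. The 3 comparisons share libraries with each other, so their values are given side by side and are not independent.

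**Figure D2:**
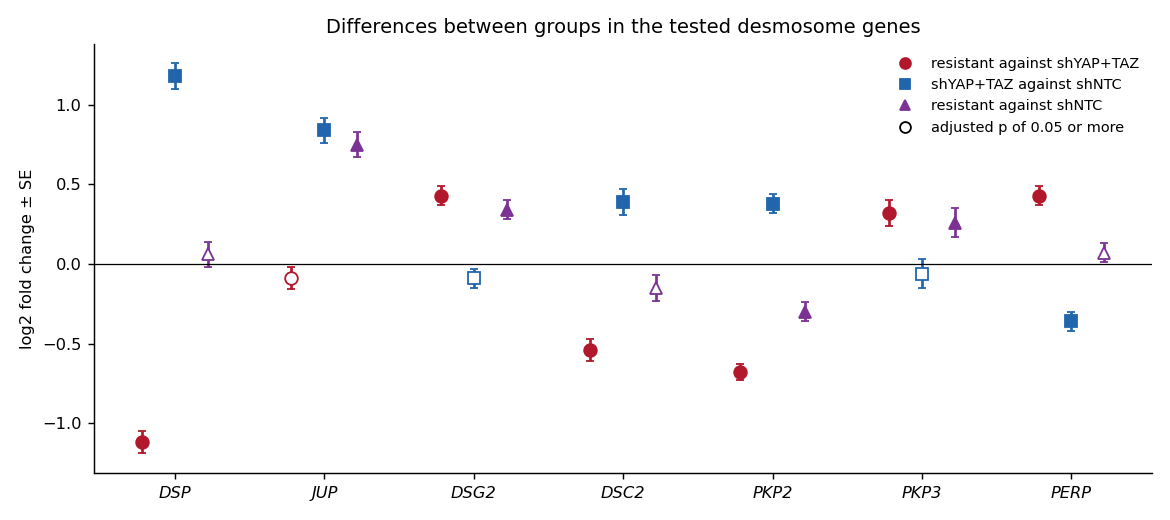
Log2 fold change of each tested desmosome gene in the 3 comparisons, with bars of 1 standard error and open symbols where the adjusted p was 0.05 or more. DSP has the values farthest from 0, at -1.12 in resistant against shYAP+TAZ cells and 1.18 in shYAP+TAZ against shNTC cells, and lies at 0.06 in resistant against shNTC cells.

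Of the cadherins, DSG2, the desmoglein found in nearly all desmosome-bearing tissue, and DSC2, its desmocollin counterpart, differed in opposite directions between resistant and shYAP+TAZ cells. DSG2 (chr18:31498043-31549008, GRCh38, plus strand) was at 266, 274 and 274 CPM in resistant libraries, 195, 197 and 212 CPM in shYAP+TAZ libraries and 201 and 226 CPM in shNTC libraries. All 3 resistant libraries lay above all the others, and the shYAP+TAZ and shNTC libraries overlapped. DSG2 was higher in resistant than in shYAP+TAZ cells (log2 fold change 0.43 ± 0.06 SE, adjusted p = 1.4e-06) and than in shNTC cells (0.34 ± 0.06, adjusted p = 9.6e-05). Between shYAP+TAZ and shNTC cells its log2 fold change was -0.09 ± 0.06 (adjusted p = 0.247). Without shNTC library 1 that value was -0.17, with an adjusted p of 0.0481.

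DSC2 (chr18:31058840-31102522, GRCh38, minus strand) was at 20.7, 21.4 and 23.0 CPM in resistant libraries, 31.7, 32.1 and 30.7 CPM in shYAP+TAZ libraries and 24.5 and 23.7 CPM in shNTC libraries. The 3 groups did not overlap, with shYAP+TAZ highest and resistant lowest. DSC2 was lower in resistant than in shYAP+TAZ cells (log2 fold change -0.54 ± 0.07, adjusted p = 9.5e-07) and higher in shYAP+TAZ than in shNTC cells (0.39 ± 0.08, adjusted p = 1.9e-04). Between resistant and shNTC cells it was at -0.15 ± 0.08 (adjusted p = 0.112). On the log2(RPKM + 1) scale, which compresses a gene this low, the first of these values was -0.34.

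Both genes lie in the cadherin cluster of chromosome 18. Of 8 other tested genes within 1 Mb of the cluster, 1 was higher and 2 were lower in resistant than in shYAP+TAZ cells, none was higher and 2 were lower in shYAP+TAZ than in shNTC cells, and 1 was higher and 2 were lower in resistant than in shNTC cells. Their median log2 fold changes were 0.07, 0.02 and 0.03. Within 5 Mb of DSC2, of 31 tested genes 7 were higher and 9 lower in resistant than in shYAP+TAZ cells, 1 higher and 9 lower in shYAP+TAZ than in shNTC cells, and 7 higher and 12 lower in resistant than in shNTC cells, with medians of -0.06, -0.06 and -0.17. Across all tested genes 31.0%, 30.3% and 30.1% were higher in these comparisons, and 31.4%, 30.4% and 32.6% were lower. The antisense genes that overlap DSC2 and DSG2, DSCAS and DSG2-AS1, had 0 to 3 counts in any library, and no source used here states whether counting used the strand.

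Per length, DSG2 made up 96.0% ± 0.115 of the RPKM of all 7 desmosomal cadherins in resistant cells, 92.6% ± 0.493 in shYAP+TAZ cells and 94.5% ± 0.566 in shNTC cells. The size of these shares and of the ratio below depends on the gene lengths behind the deposited RPKM. Those lengths were 6.19 kb for DSG2 and 12.4 kb for DSC2, from an annotation that is not stated. The DSG2 to DSC2 ratio was 25.6, 25.7 and 23.8 in resistant libraries, 12.3, 12.3 and 13.8 in shYAP+TAZ libraries and 16.4 and 19.1 in shNTC libraries. The 3 groups did not overlap in this ratio, with resistant highest and shYAP+TAZ lowest. The desmosomal cadherins together summed to 46.3 ± 0.808 RPKM in resistant, 34.8 ± 1.57 RPKM in shYAP+TAZ and 36.1 ± 3.04 RPKM in shNTC cells. For scale, CDH1, the E-cadherin of adherens junctions, was 3.58 times that sum in resistant, 3.99 times in shYAP+TAZ and 2.85 times in shNTC cells.

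**Figure D3:**
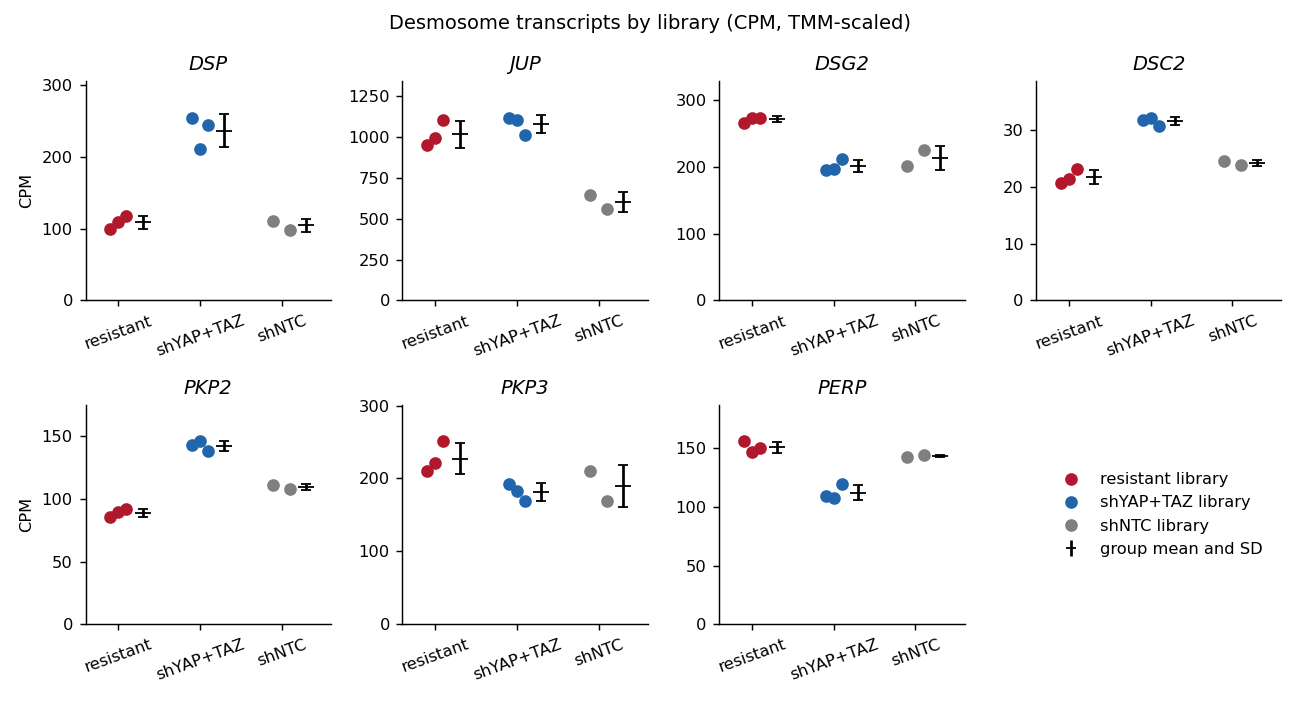
TMM-scaled CPM of the 7 tested desmosome genes, 1 point per library with the group mean and SD in black, for resistant, shYAP+TAZ and shNTC cells. DSP is at 211 to 255 CPM in shYAP+TAZ libraries and at 98.5 to 118 CPM in all others, while DSG2 is at 266 to 274 CPM in resistant libraries and at 195 to 226 CPM in all others.

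Of the armadillo-repeat proteins, JUP (plakoglobin, chr17:41754604-41786931, GRCh38, minus strand) binds the tails of both cadherin kinds. JUP was at 951, 994 and 1107 CPM in resistant libraries, 1120, 1106 and 1016 CPM in shYAP+TAZ libraries and 649 and 562 CPM in shNTC libraries. The resistant and shYAP+TAZ libraries overlapped, and all 6 lay above both shNTC libraries. JUP was higher in shYAP+TAZ than in shNTC cells (log2 fold change 0.84 ± 0.08, adjusted p = 5.4e-09) and in resistant than in shNTC cells (0.75 ± 0.08, adjusted p = 2.4e-08). Between resistant and shYAP+TAZ cells it was at -0.09 ± 0.07 (adjusted p = 0.262). Its close relative CTNNB1, the beta-catenin of adherens junctions, averaged 555 ± 16.6 CPM in resistant, 415 ± 17.1 CPM in shYAP+TAZ and 371 ± 0.857 CPM in shNTC cells, and was higher in resistant than in shYAP+TAZ cells (0.42 ± 0.05, adjusted p = 6.4e-07). The JUP to CTNNB1 ratio of RPKM was 1.97 ± 0.213 in resistant, 2.80 ± 0.256 in shYAP+TAZ and 1.75 ± 0.177 in shNTC cells.

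The plakophilins bind cadherin tails and desmoplakin and cluster the cadherins. PKP2 (chr12:32790745-32896840, GRCh38, minus strand), the plakophilin of simple epithelium and heart, was at 85.4, 89.4 and 91.8 CPM in resistant libraries, 143, 146 and 138 CPM in shYAP+TAZ libraries and 111 and 108 CPM in shNTC libraries. The 3 groups did not overlap, and resistant cells were lowest. PKP2 was lower in resistant than in shYAP+TAZ cells (log2 fold change -0.68 ± 0.05, adjusted p = 9.6e-10), higher in shYAP+TAZ than in shNTC cells (0.38 ± 0.06, adjusted p = 1.6e-05) and lower in resistant than in shNTC cells (-0.30 ± 0.06, adjusted p = 2.6e-04).

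PKP3 (chr11:392614-404908, GRCh38, plus strand), a plakophilin of most epithelia, was at 210, 221 and 251 CPM in resistant libraries, 193, 183 and 169 CPM in shYAP+TAZ libraries and 210 and 169 CPM in shNTC libraries. Resistant libraries lay above the shYAP+TAZ libraries, and shNTC library 1 stood level with the lowest resistant one. PKP3 was higher in resistant than in shYAP+TAZ cells (log2 fold change 0.32 ± 0.08, adjusted p = 9.9e-04) and than in shNTC cells (0.26 ± 0.09, adjusted p = 0.0116). The call against shNTC cells rests on single libraries. It was 0.11 (adjusted p = 0.32) without shNTC library 2, 0.19 (adjusted p = 0.0559) without resistant library 3 and 0.45 (adjusted p = 9.0e-05) without shNTC library 1. Between shYAP+TAZ and shNTC cells PKP3 was at -0.06 ± 0.09 (adjusted p = 0.561), which became 0.11 (adjusted p = 0.298) without shNTC library 1 and -0.22 (adjusted p = 0.0336) without shNTC library 2.

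The PKP3 to PKP2 ratio of RPKM was 3.88, 3.91 and 4.31 in resistant libraries, 2.13, 1.97 and 1.94 in shYAP+TAZ libraries and 3.00 and 2.47 in shNTC libraries. As with DSG2 over DSC2, the groups did not overlap, resistant cells were highest and shYAP+TAZ cells lowest. PKP2 made up 19.9% ± 0.954 of plakophilin RPKM in resistant cells, 33.2% ± 1.15 in shYAP+TAZ cells and 26.9% ± 2.69 in shNTC cells.

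**Figure D4:**
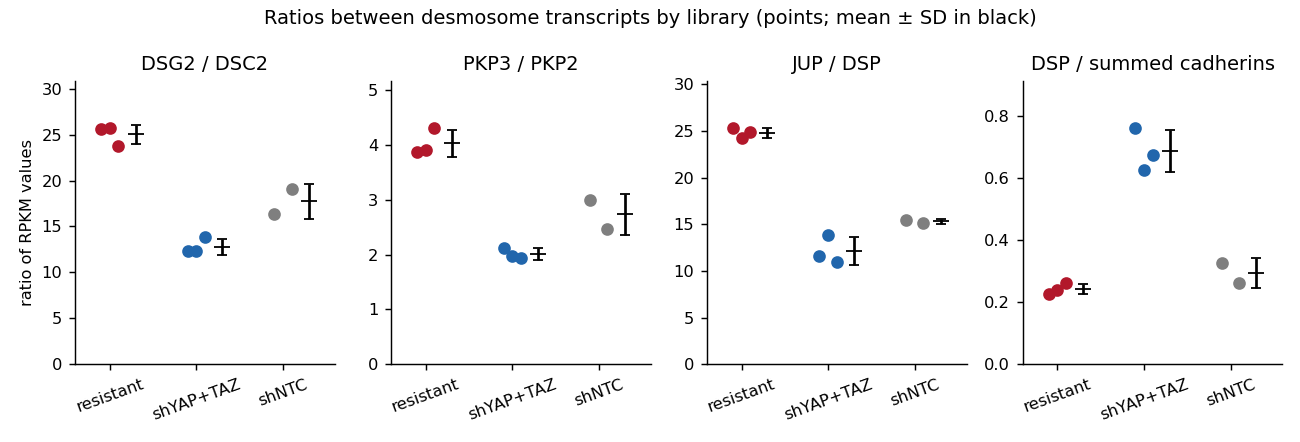
Ratios of deposited RPKM between desmosome genes, 1 point per library with the group mean and SD in black, for resistant, shYAP+TAZ and shNTC cells. The mean DSG2 to DSC2 ratio is 25.0 in resistant, 12.8 in shYAP+TAZ and 17.8 in shNTC cells, and the mean PKP3 to PKP2 ratio is 4.03 in resistant, 2.01 in shYAP+TAZ and 2.74 in shNTC cells.

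DSP (desmoplakin, chr6:7541575-7586717, GRCh38, plus strand), the obligate link from the plaque to keratin filaments, had the values farthest from 0 of the 7 genes in both comparisons with shYAP+TAZ cells. DSP was at 99.5, 109 and 118 CPM in resistant libraries, 255, 211 and 244 CPM in shYAP+TAZ libraries and 111 and 98.5 CPM in shNTC libraries. The shYAP+TAZ libraries stood above all others, and the resistant and shNTC libraries overlapped. DSP was lower in resistant than in shYAP+TAZ cells (log2 fold change -1.12 ± 0.07, adjusted p = 3.7e-11) and higher in shYAP+TAZ than in shNTC cells (1.18 ± 0.08, adjusted p = 1.6e-10). Between resistant and shNTC cells DSP was at 0.06 ± 0.08 (adjusted p = 0.585), and at -0.04 without shNTC library 2 and -0.01 without resistant library 3.

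Most tested genes near DSP were, like DSP, lower in resistant than in shYAP+TAZ cells. Of 60 tested genes within 5 Mb on either side, 4 were higher and 39 lower in resistant than in shYAP+TAZ cells, with a median log2 fold change of -0.44. In shYAP+TAZ against shNTC cells 21 were higher and 13 lower, with a median of 0.11. Against shNTC cells, resistant cells had 8 higher and 32 lower, with a median of -0.40, where DSP itself was at 0.06. Of all tested genes 31.0%, 30.3% and 30.1% were higher in these comparisons, and 31.4%, 30.4% and 32.6% were lower. Over all 871 tested genes of chromosome 6 the medians were -0.28, 0.02 and -0.29 in the same order. The part of this regional difference in the value of DSP was not tested.

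In relation to its partners, DSP per length was 0.243 ± 0.0171 of the summed cadherin RPKM in resistant cells, 0.689 ± 0.0678 in shYAP+TAZ cells and 0.294 ± 0.0474 in shNTC cells. The JUP to DSP ratio was 25.3, 24.2 and 24.9 in resistant libraries, 11.6, 13.8 and 11.0 in shYAP+TAZ libraries and 15.5 and 15.1 in shNTC libraries. The 3 groups did not overlap in JUP to DSP, with resistant highest. Ratios are a description, since groups of 2 and 3 libraries are too few for a permutation test to pass the threshold.

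PERP (chr6:138088505-138107511, GRCh38, minus strand), a tetraspan protein that is a target of p53 and of p63 and is needed for desmosomes in mouse skin, was at 156, 147 and 150 CPM in resistant libraries, 109, 108 and 120 CPM in shYAP+TAZ libraries and 143 and 144 CPM in shNTC libraries. The shYAP+TAZ libraries were the lowest, the reverse of DSP, DSC2 and PKP2, and no groups overlapped. PERP was higher in resistant than in shYAP+TAZ cells (log2 fold change 0.43 ± 0.06, adjusted p = 1.3e-06) and lower in shYAP+TAZ than in shNTC cells (-0.36 ± 0.06, adjusted p = 4.9e-05). Between resistant and shNTC cells it was at 0.07 ± 0.06 (adjusted p = 0.341). PERP lies on the other arm of chromosome 6 from DSP, and the 38 tested genes within 5 Mb of it had medians of -0.19 in resistant against shYAP+TAZ, 0.13 in shYAP+TAZ against shNTC and -0.13 in resistant against shNTC cells.

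Other targets of p53 were counted beside PERP. Of 10 tested, 4 were higher and 2 lower in resistant than in shYAP+TAZ cells (median log2 fold change 0.13), 2 were higher and 7 lower in shYAP+TAZ than in shNTC cells (median -0.77), and 3 were higher and 5 lower in resistant than in shNTC cells (median -0.27). Higher and lower shares of all tested genes were 31.0% and 31.4%, 30.3% and 30.4%, and 30.1% and 32.6% in the same order. Their medians were 0.003, 0.001 and -0.011. In resistant against shYAP+TAZ cells GDF15, a secreted stress cytokine, was higher (1.18 ± 0.07, adjusted p = 9.1e-12), as was MDM2, the ubiquitin ligase of p53 (1.06 ± 0.08, adjusted p = 4.9e-10), and BBC3, the death effector PUMA, was lower (-0.98 ± 0.13, adjusted p = 9.2e-07). In shYAP+TAZ against shNTC cells TP53INP1 was lower (-1.50 ± 0.16, adjusted p = 4.2e-08), as was the death receptor FAS (-1.43 ± 0.09, adjusted p = 1.3e-11), and the RNA-binding protein ZMAT3 was higher (1.27 ± 0.12, adjusted p = 1.4e-08). In resistant against shNTC cells the cell cycle inhibitor CDKN1A was higher (1.72 ± 0.13, adjusted p = 3.0e-10), and TP53INP1 (-2.04 ± 0.17) and BBC3 (-1.63 ± 0.13) were lower. Gene by gene, then, the members of that list went in both directions. TP63, which encodes p63, averaged 0.275 CPM in resistant, 1.78 CPM in shYAP+TAZ and 1.14 CPM in shNTC cells.

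Further genes of the desmosome and its surroundings were counted from a list of 10, of which 6 were tested. Of these 3 were higher and 1 lower in resistant than in shYAP+TAZ cells, 3 higher and 2 lower in shYAP+TAZ than in shNTC cells, and 4 higher and 2 lower in resistant than in shNTC cells, with median log2 fold changes of 0.14, 0.22 and 0.47. For scale, 62.4%, 60.7% and 62.7% of all tested genes were called in the same order. CDSN, the corneodesmosin of cornifying skin, was at 10.4, 12.3 and 13.5 CPM in resistant libraries, 2.37, 3.17 and 1.85 CPM in shYAP+TAZ libraries and 1.42 and 0.65 CPM in shNTC libraries, with no overlap. It was higher in resistant than in shYAP+TAZ cells (2.28 ± 0.17, adjusted p = 2.1e-10) and in shYAP+TAZ than in shNTC cells (1.31 ± 0.31, adjusted p = 0.00105). Plakin relatives of DSP were on that list too. PPL (periplakin) averaged 234 ± 23.6 CPM in resistant, 247 ± 15.6 CPM in shYAP+TAZ and 116 ± 16.3 CPM in shNTC cells, and EVPL (envoplakin) averaged 131 ± 8.97 CPM in resistant, 123 ± 10.5 CPM in shYAP+TAZ and 81.9 ± 17.1 CPM in shNTC cells. Both were higher in resistant than in shNTC cells, PPL at 1.01 ± 0.09 (adjusted p = 3.0e-09) and EVPL at 0.68 ± 0.10 (adjusted p = 3.9e-06), where DSP was at 0.06. PKP4, a plakophilin relative shared with adherens junctions, was lower in resistant than in shYAP+TAZ cells (-0.51 ± 0.06, adjusted p = 1.2e-07), and TCHP, which binds keratin, was higher (0.48 ± 0.09, adjusted p = 8.5e-05).

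Keratins form the filaments that DSP anchors. Of 9 tested on the list, 8 were higher and none lower in resistant than in shYAP+TAZ cells, 5 higher and none lower in shYAP+TAZ than in shNTC cells, and 9 higher in resistant than in shNTC cells, with median log2 fold changes of 0.95, 0.21 and 1.11. Called higher among all tested genes were 31.0%, 30.3% and 30.1%, and called lower 31.4%, 30.4% and 32.6%. KRT17 averaged 19.9 CPM in resistant, 0.214 CPM in shYAP+TAZ and 0.248 CPM in shNTC cells, and KRT6A averaged 51.7 CPM in resistant, 3.65 CPM in shYAP+TAZ and 0.173 CPM in shNTC cells. KRT17 was higher in resistant than in shYAP+TAZ cells (log2 fold change 6.53 ± 0.20, adjusted p = 1.5e-16), as was KRT6A (3.81 ± 0.10, adjusted p = 1.4e-17). Both are keratins of stressed or stratified epithelium with near-identical relatives and pseudogenes, as is KRT16 (1.21 CPM in resistant, 0.204 CPM in shYAP+TAZ and 0.168 CPM in shNTC cells), so the division of reads among them is uncertain. KRT5, the basal-cell keratin, averaged 10.2 CPM in resistant, 4.19 CPM in shYAP+TAZ and 0.925 CPM in shNTC cells. Among simple-epithelial keratins KRT8 averaged 1183 CPM in resistant, 812 CPM in shYAP+TAZ and 731 CPM in shNTC cells, and KRT7 averaged 1036 CPM in resistant, 957 CPM in shYAP+TAZ and 524 CPM in shNTC cells. KRT10, a keratin of cornifying skin outside that list, was lower in resistant than in shYAP+TAZ cells (-0.24 ± 0.10, adjusted p = 0.0429), with overlapping libraries. KRT8 was higher in resistant than in shYAP+TAZ cells (0.54 ± 0.06, adjusted p = 6.4e-08), where DSP was at -1.12, and KRT7 did not pass there (0.11 ± 0.06, adjusted p = 0.0928).

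Adherens junction genes, which form the neighbouring junction, went both ways. Of 12 tested, 6 were higher and 5 lower in resistant than in shYAP+TAZ cells, 7 higher and 3 lower in shYAP+TAZ than in shNTC cells, and 8 higher and 3 lower in resistant than in shNTC cells, with medians of 0.09, 0.27 and 0.24. The called shares of all tested genes were 62.4%, 60.7% and 62.7% in the same order. CDH1 averaged 813 ± 35.5 CPM in resistant, 697 ± 20.4 CPM in shYAP+TAZ and 517 ± 5.03 CPM in shNTC cells, and was called higher in each comparison, at 0.22 ± 0.05 (adjusted p = 9.6e-04), 0.43 ± 0.06 (adjusted p = 2.4e-06) and 0.65 ± 0.06 (adjusted p = 6.1e-09). CDH3 (P-cadherin) was higher in resistant than in shYAP+TAZ cells (1.37 ± 0.07, adjusted p = 2.1e-13) and lower in shYAP+TAZ than in shNTC cells (-0.70 ± 0.07, adjusted p = 6.9e-08). PLEKHA7, a junction adaptor, was lower in resistant than in shYAP+TAZ cells (-0.85 ± 0.07, adjusted p = 6.6e-10), and the adhesion molecule NECTIN1 was higher (0.88 ± 0.06, adjusted p = 1.5e-10). NECTIN4 and NECTIN3 were higher in shYAP+TAZ than in shNTC cells (0.89 ± 0.06 and 0.71 ± 0.07, adjusted p = 1.8e-10 and 2.8e-08), and NECTIN2 was higher in resistant than in shNTC cells (1.12 ± 0.08, adjusted p = 8.1e-11).

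**Figure D5:**
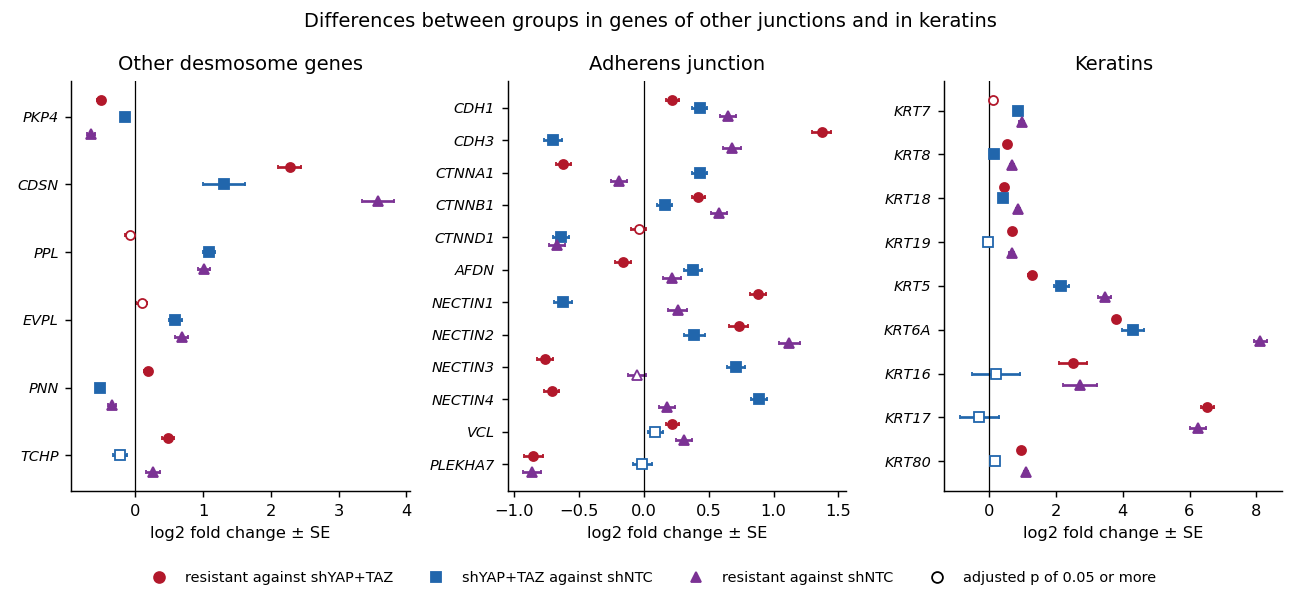
Log2 fold changes with bars of 1 standard error for the tested genes of 3 lists (other desmosome genes, adherens junction, keratins) in the 3 comparisons, with open symbols where the adjusted p was 0.05 or more. None of the 9 keratins plotted was called lower, and CDSN is the gene farthest from 0 among the other desmosome genes, at 2.28, 1.31 and 3.58.

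Transcription factors that set the epithelial state were counted because several are known to bind or repress desmosome genes. Of 14 tested, 7 were higher and 4 lower in resistant than in shYAP+TAZ cells, 7 higher and 3 lower in shYAP+TAZ than in shNTC cells, and 9 higher and 4 lower in resistant than in shNTC cells, with medians of 0.08, 0.32 and 0.48. Among all tested genes 62.4%, 60.7% and 62.7% were called in the same order. ZEB1, a repressor of epithelial junction genes that binds the E-box letters printed above, averaged 2.20 ± 0.27 CPM in resistant, 11.3 ± 0.855 CPM in shYAP+TAZ and 1.41 ± 0.0231 CPM in shNTC cells. ZEB1 was highest in shYAP+TAZ cells. Among the 4 genes with those letters, DSP and DSC2 were highest there too, and DSG2 was highest in resistant cells. JUP libraries of the resistant and shYAP+TAZ groups overlapped. ZEB1 was lower in resistant than in shYAP+TAZ cells (-2.36 ± 0.13, adjusted p = 2.1e-12) and higher in shYAP+TAZ than in shNTC cells (3.00 ± 0.16, adjusted p = 2.1e-12), as was SNAI2 in the second of these (1.49 ± 0.14, adjusted p = 1.1e-08). SNAI1 went the other way from ZEB1 between resistant and shYAP+TAZ cells, being higher in resistant cells (0.80 ± 0.14, adjusted p = 5.3e-05). SNAI1 averaged 5.44 CPM in resistant, 3.11 CPM in shYAP+TAZ and 3.26 CPM in shNTC cells. The grainyhead-like factor GRHL3, an activator of barrier genes, averaged 13.8 ± 0.221 CPM in resistant, 8.57 ± 0.142 CPM in shYAP+TAZ and 0.763 ± 0.291 CPM in shNTC cells. GRHL3 was higher in resistant than in shNTC cells (4.20 ± 0.18, adjusted p = 2.5e-14), and so was GRHL1 (1.31 ± 0.10, adjusted p = 2.3e-10). GRHL2, the grainyhead-like factor with the highest RPKM of the 3 in each group, went the other way, averaging 76.3 ± 2.88 CPM in resistant, 77.0 ± 2.22 CPM in shYAP+TAZ and 125 ± 3.39 CPM in shNTC cells. It was lower in resistant than in shNTC cells (-0.71 ± 0.06, adjusted p = 2.7e-09) and in shYAP+TAZ than in shNTC cells (-0.70 ± 0.06, adjusted p = 3.8e-09). Any part of these factors in the desmosome values was not tested.

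Enzymes that cut cadherins from the surface or crosslink the cell envelope were the last list. Of 7 tested, 1 was higher and 3 were lower in resistant than in shYAP+TAZ cells, 3 were higher and 1 was lower in shYAP+TAZ than in shNTC cells, and 4 were higher and 2 lower in resistant than in shNTC cells, with medians of -0.15, 0.10 and 0.27. Calls over all tested genes stood at 62.4%, 60.7% and 62.7% in the same order. ADAM9 averaged 243 CPM in resistant, 346 CPM in shYAP+TAZ and 510 CPM in shNTC cells, lower in each comparison, and ADAM15 averaged 72.1 CPM in resistant, 141 CPM in shYAP+TAZ and 146 CPM in shNTC cells. ADAM17, a protease known to shed DSG2, was higher in resistant than in shYAP+TAZ cells (0.23 ± 0.06, adjusted p = 0.00155). ADAM10, a further cadherin sheddase, averaged 222 CPM in resistant and 251 CPM in shYAP+TAZ cells and was lower there (-0.17 ± 0.05, adjusted p = 0.0082). TGM2, a tissue transglutaminase, averaged 5744 CPM in shYAP+TAZ cells and 4305 CPM in shNTC cells (0.42 ± 0.08, adjusted p = 8.6e-05).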

How the data were processed

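Per the labels' protocols, libraries came from the TrueSeq v2 kit and were read as single ends of 50 bases on a HiSeq2500. The submitters' processing notes name GSNAP, GRCh38.p10 and limma. The counter, annotation and strand setting are not given in the sources used here. The authors deposited raw counts per Ensembl gene and RPKM values, which scale counts by gene length and library total. On 186545 values the RPKM equalled the count over the column total and 1 constant per gene, within a relative deviation of 8.5e-07. GENCODE 29 gave symbols for 58039 of 58302 genes. Columns left out numbered 0.

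Counts were tested with edgeR 4.0.16 in R 4.3.3 (TMM factors, filterByExpr, 1 quasi-likelihood fit of all 8 libraries with group as its term, two-sided contrasts, Benjamini-Hochberg adjustment over 16256 genes). A gene was called at an adjusted p under 0.05. Standard errors of log2 fold changes were derived from the test, as the absolute log2 fold change over the square root of its F value. The common coefficient of biological variation came to 5.35%, with 15.1 median prior degrees of freedom. Libraries of a group correlated with r of at least 0.994 across genes in log2 CPM (prior count 2), and their counts differed beyond sampling noise (chi-square per degree of freedom 2.11 to 7.61), so none was counted as a duplicate. Intervals and floors (3 counts over a group) cover counting error only. Promoter windows came from RefSeq tables (GRCh38.p14).

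The alternatives changed 1 choice each: the scaling (upper-quartile or RLE factors), the tool (limma-voom of limma 3.58.1, DESeq2 1.42.0, limma-trend on the RPKM values with 0.1 or 1 added before log2), the filter (none, or 1 CPM reached in 3 libraries), the samples (the pair of groups alone, or 1 library left out) and a block for replicate number. Named genes were all 10 desmosome genes, YAP1, WWTR1, the other desmosomal cadherins, CDH1, CTNNB1 and, per list and comparison, genes from the 3 largest called changes whose higher group averaged 1 CPM or more. KRT8, GRHL2, ADAM10, MUC1, PDGFRB and the values of COL1A2, COL3A1, LUM, KDR, PECAM1 and PTPRC were chosen after their values were seen. The members, lists and tests were chosen with earlier results of these data known.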

Additional observations from a re-analysis of the deposited data

How the results depend on the processing

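Over 18 alternatives, 8 of which left out a library, 371 of 378 values of single desmosome genes kept their direction and their side of the threshold. The 3 that changed direction had not passed the test: PKP3 in shYAP+TAZ against shNTC cells was 0.11 without shNTC library 1 (range -0.22 to 0.11 with a library left out), and DSP in resistant against shNTC cells was -0.04 without shNTC library 2 and -0.01 without resistant library 3 (range -0.04 to 0.16). Calls lost were those of PKP3 in resistant against shNTC cells, and calls gained were those of DSG2 and PKP3 in shYAP+TAZ against shNTC cells, each with its values in the report; these come from fits with fewer samples. In resistant against shYAP+TAZ cells 6 desmosome genes were called in every alternative. With a library left out, 5 to 6 were called in shYAP+TAZ against shNTC and 3 to 4 in resistant against shNTC cells, and 5 and 4 in every other alternative. All genes called ran from 9220 to 10591, 8602 to 10009 and 9235 to 10122 in the 3 comparisons with a library left out. Where shNTC kept 1 library, that library was assumed to vary like the others. No sign of pairing by replicate number was seen. Deviations of same-numbered libraries from their group means correlated at -0.103 to 0.111, and not every library correlated best with its own number. Deviations within a group cancel by construction, so this check cannot exclude pairing. With the replicate number as a block 9708, 9181 and 9553 genes were called, and 6, 5 and 4 of the desmosome genes. Depth limits DSC3, DSG3 and PKP1, which had 0 to 6 counts per library.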
